A study of Mus musculus with 8 samples.

Results

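Cells that make more protein than their endoplasmic reticulum (ER) can fold raise a set of chaperone, degradation and metabolic genes, and 31 such genes were followed here in sorted enteric neural crest cells. The 31 were chosen by symbol as genes of the unfolded protein response and the integrated stress response. The rule used no measured value, though earlier results of these data were known when it was made. All 31 were found among the 18561 genes of the expression table. They fall into 12 genes of ER chaperones and folding, 4 of ER-associated degradation, 7 of sensors and transcription factors and 8 targets of the transcription factor ATF4.

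Unfolded protein in the ER is detected by the membrane sensors IRE1 (gene Ern1), PERK (Eif2ak3) and ATF6 (Atf6). IRE1 splices the mRNA of the transcription factor XBP1, and ATF6 is cut to release a transcription factor, and both raise chaperones and degradation factors. PERK is one of several kinases that phosphorylate the initiation factor eIF2, which lowers general translation while the mRNA of ATF4 is translated more. ATF4 then raises genes of amino acid supply and, when stress persists, the factor CHOP (Ddit3). The response is best known from secretory cells, where it sets the folding capacity of the ER. ATF4 and ATF6 are controlled largely through translation and cleavage, and XBP1 through splicing. Gene-level counts do not separate the splice forms of Xbp1 and show the transcript level alone for the others.

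RNA was measured in 8 libraries of cells sorted from the gut of E14.5 mouse embryos, of which 5 carried the label Emb knockdown and 3 the label WT. Emb encodes embigin, a partner of monocarboxylate transporters. Both groups were sorted with antibodies against CD271 and CD57, about 200 cells to a tube, and amplified with Smart-seq2, which does not mark strand. The labels gave no construct, promoter, strain or sex for the knockdown, and nothing said that libraries came from separate embryos, so p-values cover library-to-library spread that may be technical. Libraries held 20116607 to 26739154 expected counts in the group labelled knockdown and 21248200 to 26959265 in WT.

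Emb itself was at 353, 349, 37.2, 21.4 and 21.7 CPM (counts scaled to library size) in the libraries labelled knockdown 1 to 5, against 16.9, 17.7 and 15.9 CPM in WT. The targeted gene thus went against the label, without passing the test (log2 fold change 3.21 ± 1.21 SE, adjusted p = 0.217 in edgeR's quasi-likelihood test; 0.67 ± 0.26 and 0.0972 without knockdown 1 and 2), and directions below are those of libraries labelled knockdown. Libraries labelled knockdown 1 and 2 stood apart in cell markers. Their 20 leukocyte markers summed to 34610 and 28910 CPM, against 1690 to 2972 CPM in knockdown 3 to 5 and 485 to 807 CPM in WT. Their 20 enteric neural crest markers summed to 236 and 180 CPM, with 1 and 5 of the genes at 0, against 1744 to 2116 CPM in knockdown 3 to 5 and 4250 to 4863 CPM in WT. Sox10, a defining transcription factor of neural crest progenitors, was at 5.51 and 0 CPM in knockdown 1 and 2, 68.0 to 77.6 CPM in knockdown 3 to 5 and 244 to 281 CPM in WT. Csf1r, a macrophage receptor gene, was at 3024 and 2317 CPM in knockdown 1 and 2, 179 to 226 CPM in knockdown 3 to 5 and 40.8 to 68.1 CPM in WT. The tests were therefore run with the 8 libraries and with the 6 that leave out knockdown 1 and 2. In such bulk samples, fewer cells of a type and less RNA per cell cannot be told apart.

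Promoter windows of 300 bases, from 250 before to 50 after the annotated start (RefSeq, GRCm38.p6), were searched on both strands for the elements through which these pathways act. The ER stress element (ERSE, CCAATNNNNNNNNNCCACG) and ERSE-II (ATTGG and CCACG with 1 base of any kind between) are bound by ATF6 and XBP1. The amino acid response element (CARE, TGATGNAA) is bound by ATF4 with a C/EBP partner. The promoters of 4 members are shown because each carries such an element, with matches in capitals and the rest in lower case.
Hspa5, chr2:34771840-34772139, plus strand: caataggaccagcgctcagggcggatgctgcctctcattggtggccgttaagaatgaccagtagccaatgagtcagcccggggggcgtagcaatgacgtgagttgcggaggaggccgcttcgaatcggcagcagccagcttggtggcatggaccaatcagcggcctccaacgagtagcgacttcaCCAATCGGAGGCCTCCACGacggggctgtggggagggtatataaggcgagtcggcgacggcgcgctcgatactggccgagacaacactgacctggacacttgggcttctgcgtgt
Calr, chr8:84846882-84847181, minus strand: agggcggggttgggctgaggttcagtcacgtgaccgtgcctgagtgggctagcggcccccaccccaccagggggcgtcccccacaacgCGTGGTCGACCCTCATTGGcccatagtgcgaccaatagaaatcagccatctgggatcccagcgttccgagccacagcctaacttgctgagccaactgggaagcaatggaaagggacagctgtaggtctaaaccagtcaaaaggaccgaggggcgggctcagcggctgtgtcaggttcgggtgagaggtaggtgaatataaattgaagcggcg
Herpud1, chr8:94386179-94386478, plus strand: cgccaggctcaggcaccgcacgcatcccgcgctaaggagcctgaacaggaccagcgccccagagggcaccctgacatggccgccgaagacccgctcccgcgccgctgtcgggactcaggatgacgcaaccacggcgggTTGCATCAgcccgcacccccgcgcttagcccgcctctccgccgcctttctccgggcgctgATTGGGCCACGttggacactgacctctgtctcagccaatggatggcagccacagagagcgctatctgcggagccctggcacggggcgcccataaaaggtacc
Asns, chr6:7693160-7693459, minus strand: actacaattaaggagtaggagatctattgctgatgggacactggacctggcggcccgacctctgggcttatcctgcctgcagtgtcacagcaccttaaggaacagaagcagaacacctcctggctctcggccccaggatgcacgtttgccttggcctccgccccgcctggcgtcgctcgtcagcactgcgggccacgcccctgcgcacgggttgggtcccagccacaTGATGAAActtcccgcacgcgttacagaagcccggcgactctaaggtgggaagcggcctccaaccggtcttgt
The capitals of Hspa5 are an ERSE whose first base lies 65 bases before the start. Those of Calr are an ERSE read on the opposite strand, 162 bases before the start. Herpud1 holds a CARE on the opposite strand 112 bases before the start and then an ERSE-II 52 bases before it. Asns holds a CARE 23 bases before the start.

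Windows were given for 28 of the 31 members. Hyou1, Manf and Atf6 have no window here. The ERSE was found in 6 of the 28 members (21.4%: Hspa5, Hsp90b1, Calr, Pdia6, Dnajc3 and Creld2), against 37 of 27025 genes (0.137%). ERSE-II was found in Dnajb11 and Herpud1 (7.14% of members), against 12 genes (0.0444%). The CARE was found in 5 members (17.9%: Herpud1, Trib3, Asns, Chac1 and Slc7a11), against 1219 genes (4.51%). The XBP1 element TGACGTGG was found in 0 members and in 193 genes (0.714%). A match describes letters in the window and is not a shown binding site.

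The module was well expressed. Per length, in TPM (the share of transcripts corrected for length, with 1000000 a library), the median member level in WT was 55.8 TPM, against 7.1 TPM over all genes. The chaperone BiP (Hspa5) led with 731 ± 122 TPM (SD, n = 3), followed by the disulfide isomerase genes Pdia3 at 573 ± 79.0 TPM and Pdia6 at 532 ± 95.6 TPM and by the ER HSP90 gene Hsp90b1 at 490 ± 68.5 TPM. Each of these 4 differed from the next in this order by less than the sum of their SDs, while Hspa5 and Hsp90b1 differed by more. At the other end stood Ern1 at 0.647 ± 0.226 TPM, the cystine transporter gene Slc7a11 at 0.773 ± 0.166 TPM, the pseudokinase gene Trib3 at 1.44 ± 0.874 TPM and the glutathione-degrading enzyme gene Chac1 at 2.43 ± 1.00 TPM. Phgdh, the first enzyme of serine synthesis, was at 226 ± 66.0 TPM and Atf4 at 101 ± 25.7 TPM.

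In the 8 libraries no member passed the test. edgeR's quasi-likelihood test called 0 of 15411 genes (0% called) and 0 of 31 members, the smallest adjusted p of a member being 0.158 for Atf4. At an unadjusted p under 0.05 there were 7 higher and 2 lower members, against 2865 genes (18.6%) over the whole table. DESeq2 called 6 members higher (Calr, Edem1, Eif2ak3, Atf4, Ddit3 and Cebpb) with 14.4% of all genes called (10.5% higher and 3.91% lower), and limma voom called 4 higher and 5 lower with 24.1% of all genes called (12.6% higher and 11.6% lower). The libraries labelled knockdown did not overlap WT for 8 of the 31 members (25.8%), 6 higher and 2 lower, against 22.7% of all genes, a share near that background. The median member log2 fold change was 0.39, with 22 positive and 9 negative, against 0.07 over all genes. Without a composition factor the median of all genes was -0.17. The role medians there were -0.21 (chaperones), 0.40 (degradation), 0.68 (sensors and factors) and -0.85 (ATF4 targets). With voom the median of all genes was -0.05, and in the same order 8 of 12, 2 of 4, 2 of 7 and 8 of 8 members were negative. The positive lean of the members thus depended on the method.

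In the 6 libraries 3 members rose and 3 fell. Atf4, the chaperone gene Calr and the mannosidase-like degradation gene Edem1 rose, and the chaperone gene Hyou1 and the serine synthesis genes Phgdh and Psat1 fell in the libraries labelled knockdown. In GRCm38.p6 (RefSeq) the genes lie with Atf4 on chr15:80255184-80257545, Calr on chr8:84842088-84846931, Edem1 on chr6:108824045-108859356, Hyou1 on chr9:44379490-44392369, Phgdh on chr3:98313171-98339969 and Psat1 on chr19:15905123-15925059. These 6 calls were 19.4% of the members, while 20.4% of 15115 genes were called (3090 genes, 1673 higher and 1417 lower), so the share among members was near the background. The other 25 members did not pass. DESeq2 called 9 members (4 higher, 5 lower) with 30% of all genes called, and voom 19 (8 higher, 11 lower) with 45.5%. The median member log2 fold change was -0.37, with 11 positive and 20 negative, against 0.02 over all genes. Groups did not overlap for 13 of 31 members (41.9%), 6 higher and 7 lower, against 43.4% of all genes. Leaving out knockdown 4, WT 2 or WT 3 left 0 members passing. Most calls over all genes were lost too, with 180 of 15454, 417 of 15418 and 294 of 15455 genes called. Without knockdown 3, 16 members passed (6 higher and 10 lower) while 38.9% of all genes were called.

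**Figure D1:**
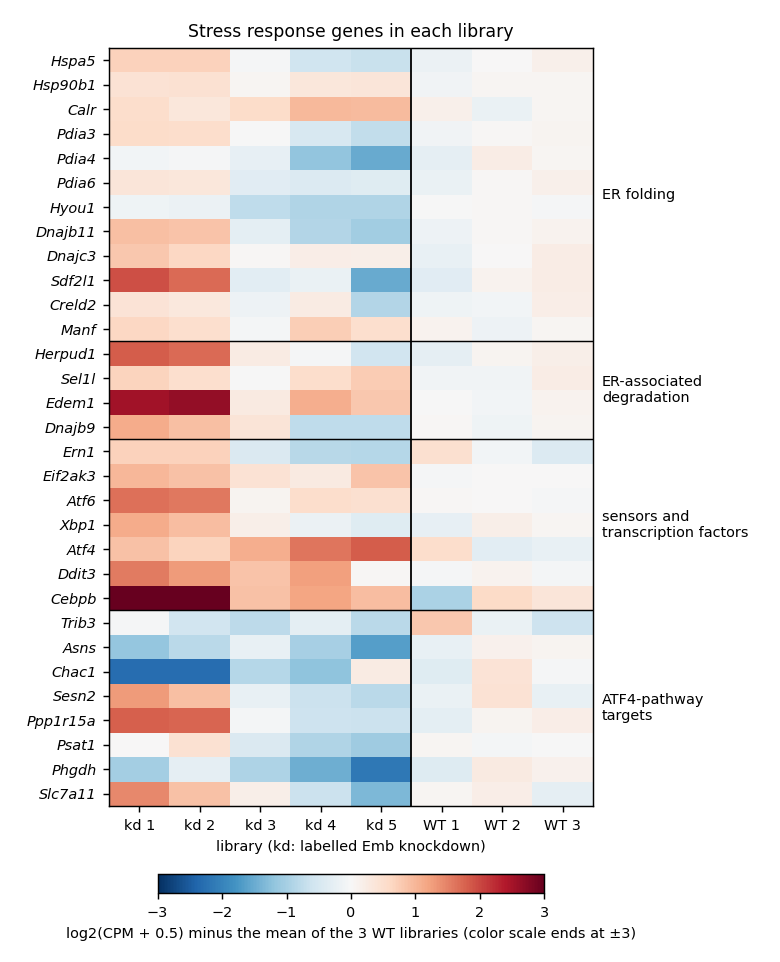
Level of each of the 31 genes (rows, grouped by role) in each library (columns, 5 labelled knockdown left of 3 WT), as log2(CPM + 0.5) minus the mean of the 3 WT libraries, with colours ending at ±3. Knockdown 1 and 2 are redder than the rest for Edem1, Cebpb and Ppp1r15a, while Atf4 is reddest in knockdown 4 and 5 and Phgdh is bluest in knockdown 5.

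Among the ER chaperones and folding factors 1 of 12 rose, 1 fell and 10 failed to pass in the 6 libraries. This was 16.7% called, against 20.4% of all genes, and the median log2 fold change was -0.38. Calr, which encodes the lectin chaperone calreticulin, was at 553, 481, 563, 747 and 736 CPM in libraries labelled knockdown 1 to 5, against 426, 331 and 396 CPM in WT. All 5 libraries labelled knockdown lay above all 3 WT libraries, and knockdown 4 and 5 were the highest. Calr averaged 682 ± 103 CPM in knockdown 3 to 5 and 384 ± 48.2 CPM in WT (SD, n = 3 each), and rose by 0.83 ± 0.19 on the log2 scale (adjusted p = 0.0236 in edgeR's quasi-likelihood test). With all 8 libraries the log2 fold change was 0.68 ± 0.22 and did not pass (adjusted p = 0.184). The call in the 6 libraries was lost without knockdown 4 or 5 or without WT 2 or 3 (adjusted p from 0.0511 to 0.110). A processed pseudogene of Calr is annotated, and its reads could be split between the copies.

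Hyou1 encodes an ER chaperone of the HSP110 family that exchanges nucleotide on BiP. It was at 87.6, 83.5, 55.7, 50.8 and 50.6 CPM in libraries labelled knockdown 1 to 5, against 94.6, 97.9 and 92.8 CPM in WT. Every library labelled knockdown lay below every WT library, and knockdown 3 to 5 lay close together. Hyou1 averaged 52.4 ± 2.91 CPM in knockdown 3 to 5 and 95.1 ± 2.59 CPM in WT (SD, n = 3 each). It fell by 0.86 ± 0.15 on the log2 scale (adjusted p = 0.0129 in edgeR's test), and with all 8 libraries the log2 fold change was -0.53 ± 0.25 (adjusted p = 0.298). The call was lost without knockdown 4, WT 2 or WT 3 (adjusted p from 0.0626 to 0.0692). Calr and Hyou1, both in the ER lumen, thus passed in opposite directions.

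BiP itself did not pass in either comparison. Hspa5 was at 1706, 1690, 1036, 694 and 668 CPM in libraries labelled knockdown 1 to 5, against 937, 1070 and 1168 CPM in WT. In these CPM, which include composition factors, knockdown 1 and 2 lay above WT, knockdown 4 and 5 below it and knockdown 3 within its range. In TPM, Hspa5 averaged 544 ± 176 over the 5 libraries labelled knockdown, against 731 ± 122 in WT (SD). The log2 fold change of Hspa5 was 0.13 ± 0.37 with 8 libraries (adjusted p = 0.89) and -0.40 ± 0.22 with 6 (adjusted p = 0.223). With 8 libraries the sign was negative on FPKM, with voom and without a composition factor.

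The other chaperone members held the same split between libraries in part. Dnajb11, a BiP co-chaperone gene, was at 195 and 190 CPM in knockdown 1 and 2 and 50.7 to 85.2 CPM in knockdown 3 to 5, against 94.3 to 113 CPM in WT. Sdf2l1, which encodes a partner of that co-chaperone, was at 252 and 213 CPM in knockdown 1 and 2 and 22.6 to 57.1 CPM in knockdown 3 to 5, against 51.4 to 76.6 CPM in WT. Pdia4, a disulfide isomerase gene, was at 235 and 242 CPM in knockdown 1 and 2 and 86.7 to 209 CPM in knockdown 3 to 5, against 206 to 292 CPM in WT. None of these passed, with adjusted p in the 6 libraries of 0.0546 for Dnajb11, 0.233 for Sdf2l1 and 0.0751 for Pdia4. Pdia3, Pdia6, Creld2, Dnajc3, Hsp90b1 and Manf, which encodes a secreted BiP-binding factor, had log2 fold changes from -0.38 (Pdia3) to 0.43 (Manf) in the 6 libraries and did not pass. The median of the 12 with 8 libraries was 0.14 and turned to -0.21 without a composition factor, to -0.27 on FPKM and to -0.37 with voom. It also turned to -0.05 without knockdown 1 and to -0.03 without knockdown 2. In the 6 libraries 8 of 12 were negative under every scaling tried.

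**Figure D2:**
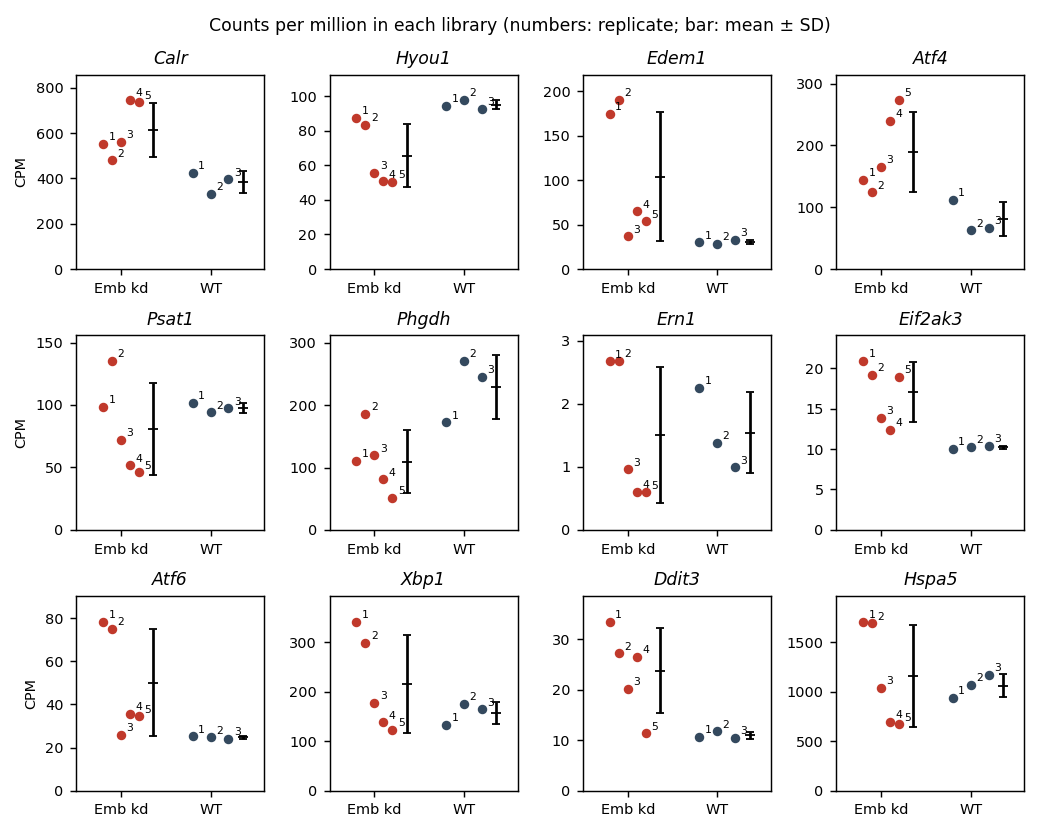
CPM (vertical axes, each from 0) of 12 genes in every library, with the 5 libraries labelled knockdown left of the 3 WT libraries, the numbers giving the replicate and the bar the mean ± SD of the group. Atf4 and Calr lie above WT in all 5 libraries labelled knockdown, Hyou1 lies below, and Edem1, Atf6 and Hspa5 separate knockdown 1 and 2 from knockdown 3 to 5.

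Of the 4 genes of ER-associated degradation, which returns misfolded proteins to the cytosol, 1 rose and 3 did not pass in the 6 libraries (median 0.18, and 0.72 with 8 libraries, where 0 passed). The share called in the 6 libraries was 25%, against 20.4% of all genes. Edem1, whose product marks misfolded glycoproteins for degradation, was at 175, 190, 36.7, 64.8 and 53.5 CPM in libraries labelled knockdown 1 to 5, against 29.9, 28.4 and 32.6 CPM in WT. No library labelled knockdown reached down to WT, and knockdown 1 and 2 lay far above the other 3. Edem1 averaged 51.7 ± 14.2 CPM in knockdown 3 to 5 and 30.3 ± 2.12 CPM in WT (SD, n = 3 each), and rose by 0.77 ± 0.23 on the log2 scale (adjusted p = 0.0457 in edgeR's test). The log2 fold change with 8 libraries was 1.78 ± 0.60 (adjusted p = 0.195). This call was the least stable of the 6, being lost on FPKM, without a composition factor and without any of knockdown 4, knockdown 5 or the WT libraries (adjusted p from 0.0579 to 0.166).

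Sel1l, the scaffold of the HRD1 ubiquitin ligase, was at 90.8 to 102 CPM in knockdown 1 and 2 and 63.5 to 109 CPM in knockdown 3 to 5, against 59.5 to 74.4 CPM in WT (6 libraries: 0.46 ± 0.23, adjusted p = 0.171). Herpud1, a membrane organiser of the same complex whose promoter holds both an ERSE-II and a CARE, was at 208 and 192 CPM in knockdown 1 and 2 and 39.1 to 70.3 CPM in knockdown 3 to 5, against 48.7 to 67.0 CPM in WT. Dnajb9, a BiP co-chaperone gene that acts on IRE1, was at 49.0 and 41.9 CPM in knockdown 1 and 2 and 12.9 to 29.4 CPM in knockdown 3 to 5, against 20.3 to 23.6 CPM in WT. Neither Herpud1 nor Dnajb9 passed in either comparison.

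Of the 7 sensors and transcription factors 1 rose and 6 did not pass in the 6 libraries (median 0.56, and 1.02 with 8 libraries, where 0 passed). The share called in the 6 libraries was 14.3%, against 20.4% of all genes. Atf4 gave the largest log2 fold change among the members that passed. It was at 144, 124, 165, 240 and 274 CPM in libraries labelled knockdown 1 to 5, against 112, 62.9 and 67.1 CPM in WT. All libraries labelled knockdown lay above WT, and WT 1 was nearest to them. Atf4 averaged 226 ± 55.5 CPM in knockdown 3 to 5 and 80.6 ± 27.1 CPM in WT (SD, n = 3 each), and rose by 1.49 ± 0.28 on the log2 scale (adjusted p = 0.0137 in edgeR's test). With 8 libraries the log2 fold change was 1.23 ± 0.35 (adjusted p = 0.158, unadjusted p = 0.00792 over all genes fitted). The call in the 6 libraries was lost without knockdown 4, WT 2 or WT 3 (adjusted p from 0.0608 to 0.0692).

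The sensors were low in level and none passed. Eif2ak3, the gene of PERK, was at 20.9, 19.2, 13.9, 12.3 and 18.9 CPM in libraries labelled knockdown 1 to 5, against 9.996, 10.3 and 10.4 CPM in WT. The groups did not overlap, and the 3 WT libraries agreed closely (8 libraries: 0.74 ± 0.29, adjusted p = 0.236; 6 libraries: 0.56 ± 0.26, adjusted p = 0.143). Atf6 was at 78.4, 75.2, 26.0, 35.7 and 34.5 CPM in libraries labelled knockdown 1 to 5, against 25.2, 24.8 and 24.0 CPM in WT. The groups did not overlap, although knockdown 3 lay just above WT (8 libraries: 1.02 ± 0.42, adjusted p = 0.252; 6 libraries: 0.38 ± 0.20, adjusted p = 0.192). Ern1, the gene of IRE1, was at 2.68, 2.69, 0.962, 0.608 and 0.599 CPM in libraries labelled knockdown 1 to 5, against 2.26, 1.39 and 0.991 CPM in WT. Knockdown 1 and 2 lay above WT and knockdown 3 to 5 below it (6 libraries: -1.08 ± 0.67, adjusted p = 0.268).

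Xbp1 was at 341, 299, 177, 138 and 122 CPM in libraries labelled knockdown 1 to 5, against 133, 176 and 164 CPM in WT. Knockdown 1 and 2 lay above WT and the other 3 overlapped it (8 libraries: 0.45 ± 0.38, adjusted p = 0.578; 6 libraries: -0.11 ± 0.20, adjusted p = 0.715). Ddit3 was at 33.4, 27.2, 20.2, 26.5 and 11.3 CPM in libraries labelled knockdown 1 to 5, against 10.7, 11.8 and 10.5 CPM in WT. Knockdown 5 lay within the WT range and the other 4 above it (8 libraries: 1.11 ± 0.37, adjusted p = 0.193; 6 libraries: 0.82 ± 0.32, adjusted p = 0.0972). Exons of Ddit3 and the methionyl-tRNA synthetase gene Mars overlap on opposite strands by 68 bases, so reads there cannot be told apart. Cebpb, which encodes the transcription factor C/EBP beta and is also abundant in macrophages, was at 762 and 594 CPM in knockdown 1 and 2 and 74.0 to 91.1 CPM in knockdown 3 to 5, against 20.6 to 59.7 CPM in WT. Cebpb did not pass (8 libraries: adjusted p = 0.211; 6 libraries: 0.103), its exons overlap Tmem189 by 312 bases, and its level moved with the summed leukocyte markers, whose part in it was not tested.

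**Figure D3:**
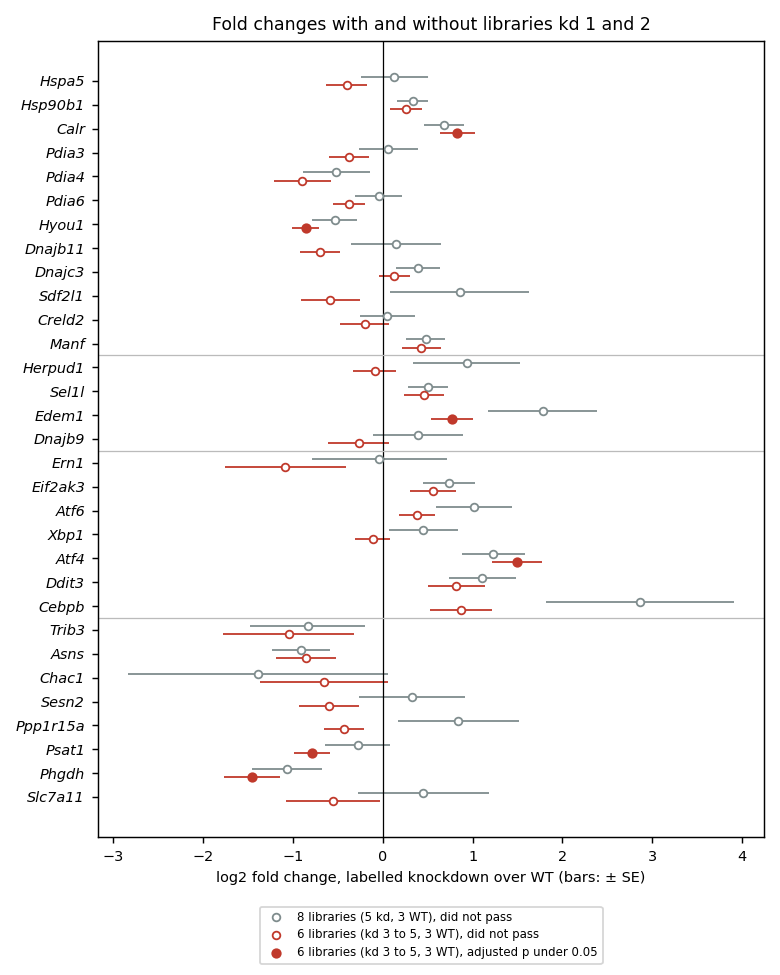
Log2 fold change of each of the 31 genes, libraries labelled knockdown over WT, with bars of ± SE, in the 8 libraries (grey) and in the 6 without knockdown 1 and 2 (red, filled at an adjusted p under 0.05). The filled points are Calr, Hyou1, Edem1, Atf4, Psat1 and Phgdh, and the 8 ATF4 targets at the bottom all lie below 0 in red.

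The 8 members listed as ATF4 targets lay on the other side of 0 from Atf4 in the 6 libraries. This holds for the list as drawn up. Ddit3, which ATF4 also raises, was counted with the factors and was positive (0.82 ± 0.32, adjusted p = 0.0972 in edgeR's test). On the wider list of ATF4 and amino acid genes 28 were negative and 8 positive. Of 8, 2 fell (25%, against 9.37% of all genes called lower), 0 rose and 6 did not pass. All 8 log2 fold changes were negative under every setting tried in the 6 libraries, and the median was -0.72. With 8 libraries the median was -0.55, with 5 negative and 3 positive, and 0 passed. Phgdh was at 110, 186, 119, 81.0 and 51.0 CPM in libraries labelled knockdown 1 to 5, against 173, 271 and 245 CPM in WT. Knockdown 2 lay above the lowest WT library and the other 4 below all WT libraries. Phgdh averaged 83.8 ± 34.2 CPM in knockdown 3 to 5 and 230 ± 51.1 CPM in WT (SD, n = 3 each), and fell by 1.45 ± 0.31 on the log2 scale (adjusted p = 0.0184 in edgeR's test). With 8 libraries its log2 fold change was -1.07 ± 0.39 (adjusted p = 0.211). A processed pseudogene of Phgdh is annotated, so its counts are uncertain to that extent.

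Psat1, the next enzyme of serine synthesis, was at 98.3, 135, 72.0, 51.7 and 46.2 CPM in libraries labelled knockdown 1 to 5, against 102, 94.1 and 97.3 CPM in WT. Knockdown 3 to 5 lay below WT, knockdown 1 within its range and knockdown 2 above it. Psat1 averaged 56.6 ± 13.6 CPM in knockdown 3 to 5 and 97.8 ± 3.92 CPM in WT (SD, n = 3 each), and fell by 0.78 ± 0.20 on the log2 scale (adjusted p = 0.0297 in edgeR's test). With 8 libraries its log2 fold change was -0.28 ± 0.36 (adjusted p = 0.739). The calls in the 6 libraries were lost for Phgdh without knockdown 4, WT 2 or WT 3 (adjusted p from 0.0724 to 0.0964) and for Psat1 without knockdown 4, knockdown 5 or any WT library (adjusted p from 0.0684 to 0.128).

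Asns, the asparagine synthetase gene whose promoter is shown with a CARE, was at 20.2, 25.9, 39.1, 22.5 and 14.2 CPM in libraries labelled knockdown 1 to 5, against 39.3, 50.03 and 48.3 CPM in WT. All 5 libraries labelled knockdown lay below WT, knockdown 3 only just (8 libraries: -0.91 ± 0.32, adjusted p = 0.203; 6 libraries: -0.86 ± 0.34, adjusted p = 0.1003). Ppp1r15a, which encodes the GADD34 subunit that dephosphorylates eIF2, was at 740 and 719 CPM in knockdown 1 and 2 and 136 to 207 CPM in knockdown 3 to 5, against 174 to 248 CPM in WT, and did not pass. Sesn2, a stress-induced inhibitor of mTORC1, was at 25.1 and 19.4 CPM in knockdown 1 and 2 and 5.53 to 8.62 CPM in knockdown 3 to 5, against 8.51 to 13.8 CPM in WT, and did not pass. Trib3, Chac1 and Slc7a11 were at most 3.00, 2.74 and 12.6 CPM in any library and did not pass. Chac1 had 0 counts in knockdown 1 and 2, and 3 counts there would be 0.155 and 0.141 CPM.

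Summed over each role, knockdown 1 and 2 were above the other 6 libraries in all 4 groups. The ATF4 targets summed to 1008 and 1095 CPM in knockdown 1 and 2 and 258 to 452 CPM in knockdown 3 to 5, against 505 to 667 CPM in WT. The degradation genes summed to 534 and 515 CPM in knockdown 1 and 2 and 200 to 228 CPM in knockdown 3 to 5, against 161 to 198 CPM in WT. The sensors and factors summed to 1382 and 1141 CPM in knockdown 1 and 2 and 477 to 544 CPM in knockdown 3 to 5, against 314 to 347 CPM in WT. In the sum of the targets, knockdown 3 to 5 lay below WT and knockdown 1 and 2 above it. Ppp1r15a alone gave 740 and 719 CPM of the sums in knockdown 1 and 2. Of the other targets, Sesn2 and Slc7a11 lay above WT in both and Psat1 in knockdown 2 only. Phgdh, Asns, Trib3 and Chac1 lay above WT in neither. In the sum of the sensors and factors every library labelled knockdown lay above WT, with Cebpb alone giving 762 and 594 CPM in knockdown 1 and 2. The chaperones summed to 6573 and 6399 CPM in knockdown 1 and 2 and 3936 to 4425 CPM in knockdown 3 to 5, against 4143 to 4826 CPM in WT. Marker sums of other cells also differed between libraries, not all in the same direction as the role sums. In knockdown 1 and 2 the 18 mesenchyme markers summed to 144 and 908 CPM, and in knockdown 3 to 5 to 7630 to 8465 CPM, against 4306 to 5512 CPM in WT. The 16 endothelial markers summed to 110 and 113 CPM in knockdown 1 and 2, with 5 and 4 genes at 0, and to 148 to 306 CPM in knockdown 3 to 5, against 787 to 991 CPM in WT. A further list held 20 immediate early and heat shock genes, Hspa1a, Hspa1b and Hspb1 among them, which respond to dissociation. They summed to 27710 and 24960 CPM in knockdown 1 and 2 and 8608 to 10160 CPM in knockdown 3 to 5, against 5704 to 8605 CPM in WT. In the 6 libraries 16 of 20 leukocyte markers, 10 of 18 mesenchyme markers and 8 of 20 immediate early and heat shock genes rose. In the same comparison 12 of 20 neural crest and 14 of 16 endothelial markers fell. Of all genes 11.1% were called higher and 9.37% lower. The part of other cells and of dissociation in the results was not tested.

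**Figure D4:**
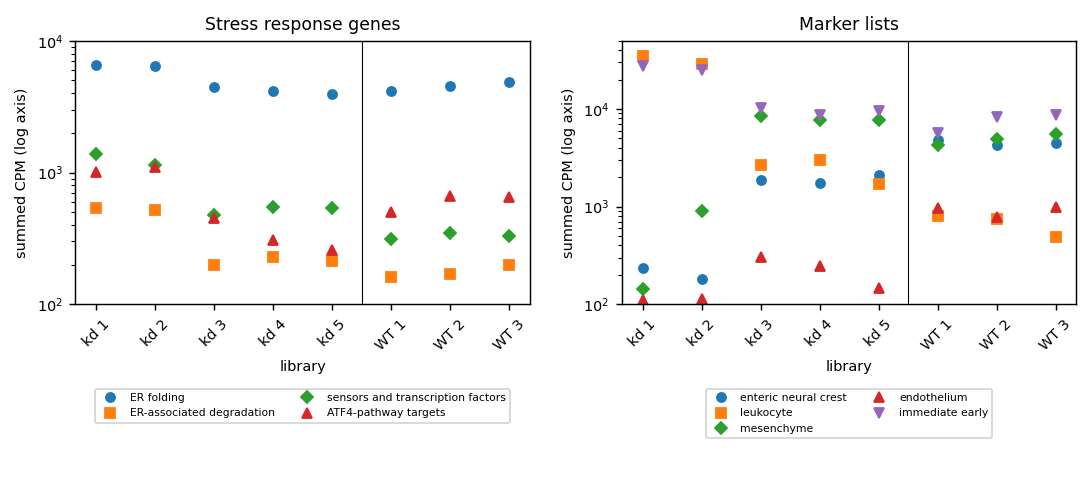
Summed CPM (log axes) in each library, 5 labelled knockdown left of 3 WT, for the 4 role groups of the 31 genes (left panel) and for markers of 4 cell types and immediate early genes, heat shock genes included (right panel). In knockdown 1 and 2 all 4 role groups are at their highest in these CPM, which include the composition factors. Leukocyte markers reach 34610 and 28910 CPM there and neural crest markers drop to 236 and 180 CPM.

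Beyond the 31 members, 115 further genes of the same pathways were listed, of which 113 were tested. In the 6 libraries 5 rose, 21 fell and 87 did not pass (median -0.23), while 11.1% of all genes were called higher and 9.37% lower. In the 8 libraries 0 of them passed. The clearest group was that of ATF4 and amino acid genes, where 12 of 36 (33.3%) fell and 0 rose, the median was -0.47 (-0.31 with 8 libraries) and 24 did not pass. Of the 12 aminoacyl-tRNA synthetase genes on this list, which load amino acids onto tRNAs, 9 fell (Aars, Cars, Gars, Iars, Mars, Sars, Tars, Wars and Yars), and Eprs, Lars and Nars did not pass. The subset was picked with its values in view. The other 3 that fell were Slc7a5, Gpt2 and Mthfd2, a mitochondrial folate enzyme gene.

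Slc7a5, a large neutral amino acid transporter gene, was at 89.4, 140, 31.4, 18.3 and 24.3 CPM in libraries labelled knockdown 1 to 5, against 62.8, 68.0 and 78.4 CPM in WT. Knockdown 1 and 2 lay above WT and the other 3 below it, where Slc7a5 fell by 1.49 ± 0.23 on the log2 scale (6 libraries, adjusted p = 0.00901 in edgeR's test). This call was lost without knockdown 4 (adjusted p = 0.0503). Gpt2, an alanine aminotransferase gene, was at 17.1, 17, 20.4, 17.3 and 14.3 CPM in libraries labelled knockdown 1 to 5, against 33.4, 41.3 and 36.8 CPM in WT. All 5 libraries labelled knockdown lay below WT and close together, and Gpt2 fell by 1.10 ± 0.21 in the 6 libraries (adjusted p = 0.0143), with a log2 fold change of -1.11 ± 0.21 in the 8 (adjusted p = 0.137). Aars was at 116, 109, 62.9, 56.5 and 59.9 CPM in libraries labelled knockdown 1 to 5, against 109, 121 and 107 CPM in WT. Cars was at 63.8, 60.1, 24.2, 18.8 and 12.8 CPM in libraries labelled knockdown 1 to 5, against 38.2, 49.1 and 43.4 CPM in WT. For both genes knockdown 3 to 5 lay below WT and knockdown 1 and 2 did not. Aars fell by 0.91 ± 0.16 and Cars by 1.23 ± 0.26 on the log2 scale in the 6 libraries, and with 8 the log2 fold changes were -0.48 ± 0.30 and -0.28 ± 0.55. The calls of Gpt2, Aars and Cars were lost without knockdown 4, WT 2 or WT 3. Without those libraries 0, 1 and 1 genes of the list of 36 fell, while 180, 417 and 294 of all genes were called. By implied transcript length, the list had medians of -0.46, -0.41, -0.74, -0.52 and -0.06 in 5 classes of rising length (3 to 11 genes each), against 0.21, -0.28, -0.28, -0.10 and 0.44 over all genes. The list median lay below that of all genes in each class, and the part of length in this list was not tested.

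**Figure D5:**
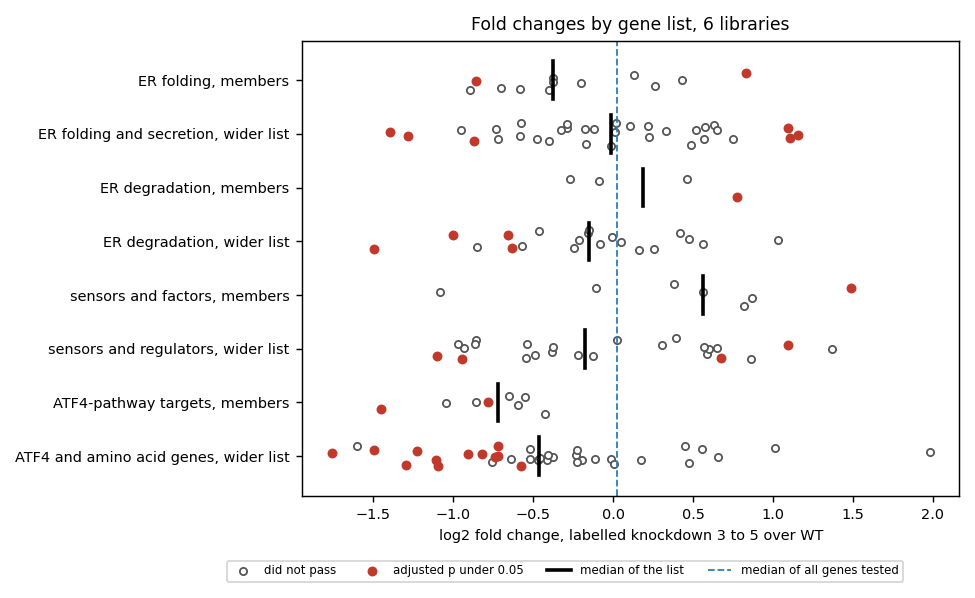
Log2 fold change in the 6 libraries, knockdown 3 to 5 over WT, of every tested gene of the 4 role groups and of the 4 wider lists (rows), filled at an adjusted p under 0.05, with black bars for list medians and a dashed line for the median of all genes tested (0.02). The 8 ATF4 targets lie left of 0, and 12 filled points of the wider ATF4 and amino acid list lie left and 0 right of it.

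Of 33 tested genes of ER folding and secretion on the wider list 3 rose and 3 fell in the 6 libraries (median -0.02). These shares were 9.09% each, against 11.1% of all genes called higher and 9.37% lower. With 8 libraries 0 genes passed in any of the wider ER lists, and the medians were 0.17 for folding and secretion, 0.06 for degradation and 0.10 for sensors and regulators, against 0.07 over all genes. Without a composition factor these 3 medians turned to -0.07, -0.22 and -0.17. Dad1, a subunit of the oligosaccharyltransferase, was at 254, 236, 302, 383 and 346 CPM in libraries labelled knockdown 1 to 5, against 174, 143 and 167 CPM in WT, and rose by 1.09 ± 0.17 in the 6 libraries (adjusted p = 0.00947). Sec61b and Sec61a1 encode 2 subunits of the same translocon and passed in opposite directions. Sec61b was at 209, 185, 186, 297 and 249.5 CPM in libraries labelled knockdown 1 to 5, against 134, 88.4 and 106 CPM in WT. Sec61a1 was at 295, 321.5, 161, 96.1 and 70.4 CPM in libraries labelled knockdown 1 to 5, against 258, 318 and 288 CPM in WT. All 5 libraries labelled knockdown lay above WT for Sec61b, while for Sec61a1 knockdown 3 to 5 lay below WT and knockdown 1 and 2 did not. In the 6 libraries Sec61b rose by 1.16 ± 0.23 (adjusted p = 0.0156) and Sec61a1 fell by 1.40 ± 0.29 (adjusted p = 0.0167) on the log2 scale. With 8 libraries their log2 fold changes were 1.04 ± 0.25 and -0.61 ± 0.50. The implied transcript length was 338 bases for Sec61b and 2825 bases for Sec61a1, and the median log2 fold change of all genes was 0.21 in the class of 114 to 1382 bases and -0.28 in that of 2180 to 3081 bases. Of the other genes that rose, Dad1 (486 bases), Fkbp11 (499), Bloc1s1 (336) and the member Atf4 (1251) lie in the same short class. Creb3l2 (4714 bases) and the members Calr (1728) and Edem1 (5627) do not. The part of length in these genes and in the Sec61 pair was not tested. The prolyl isomerase gene Fkbp11 was at 5.67, 2.54, 17.7, 16.98 and 18.9 CPM in libraries labelled knockdown 1 to 5, against 8.00, 8.47 and 8.44 CPM in WT. It rose by 1.11 ± 0.22 in the 6 libraries (adjusted p = 0.0158), while knockdown 1 and 2 lay below WT. With 8 libraries the log2 fold changes of Dad1 and Fkbp11 were 0.92 ± 0.22 and 0.57 ± 0.66.

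Of 20 wider degradation genes 4 fell (20%, against 9.37% of all genes called lower) and none rose in the 6 libraries (median -0.15). Vcp, the ATPase that extracts ubiquitinated proteins from the ER membrane, was at 554, 601, 542, 360 and 322 CPM in libraries labelled knockdown 1 to 5, against 844, 817 and 792 CPM in WT. All 5 libraries labelled knockdown lay below WT, and Vcp fell by 1.00 ± 0.23 in the 6 libraries (adjusted p = 0.0211). Ube2g2, a ubiquitin-conjugating enzyme gene, was at 120, 130.5, 62.7, 42.5 and 25.1 CPM in libraries labelled knockdown 1 to 5, against 108, 133 and 128 CPM in WT. Fam8a1 was at 13.1, 22.3, 38.7, 30.4 and 31.5 CPM in libraries labelled knockdown 1 to 5, against 58.7, 50.3 and 47.7 CPM in WT. For Ube2g2 knockdown 1 and 2 lay within the WT range, and for Fam8a1 they were the lowest of all libraries. In the 6 libraries Ube2g2 fell by 1.497 ± 0.30 and Fam8a1, a cofactor gene of HRD1, by 0.63 ± 0.18 on the log2 scale (adjusted p = 0.0159 and 0.0427). With 8 libraries the log2 fold changes of Vcp, Ube2g2 and Fam8a1 were -0.78 ± 0.25, -0.69 ± 0.51 and -0.94 ± 0.34.

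Of 24 wider sensors and regulators 2 rose and 2 fell in the 6 libraries (median -0.17). These shares were 8.33% each, against 11.1% of all genes called higher and 9.37% lower. Atf6b, the paralog of Atf6, was at 167, 169, 66.4, 53.2 and 50.6 CPM in libraries labelled knockdown 1 to 5, against 112, 133 and 120 CPM in WT. Knockdown 1 and 2 lay above WT and knockdown 3 to 5 below it, where Atf6b fell by 1.10 ± 0.18 (adjusted p = 0.00976). Eif2b5, which encodes the catalytic subunit of the exchange factor that phosphorylated eIF2 inhibits, fell by 0.94 ± 0.19 (adjusted p = 0.0159), with 85.6, 87.3, 62.5, 51.7 and 45.6 CPM in libraries labelled knockdown 1 to 5, against 86.4, 111 and 110.4 CPM in WT. Creb3l2 was at 10.4, 13.6, 70.4, 89.3 and 95.95 CPM in libraries labelled knockdown 1 to 5, against 44.2, 31.4 and 44.2 CPM in WT. Knockdown 3 to 5 lay above WT and knockdown 1 and 2 below it. Bloc1s1 was at 108, 79.0, 74.9, 97.9 and 82.3 CPM in libraries labelled knockdown 1 to 5, against 61.3, 45.3 and 53.8 CPM in WT, without overlap. The ER-anchored transcription factor gene Creb3l2 rose by 1.10 ± 0.21 and Bloc1s1, whose transcript IRE1 cuts, rose by 0.67 ± 0.19 on the log2 scale in the 6 libraries (adjusted p = 0.0142 and 0.0388). With 8 libraries the log2 fold changes of Atf6b, Eif2b5, Creb3l2 and Bloc1s1 were -0.27 ± 0.48, -0.63 ± 0.27, 0.49 ± 0.75 and 0.73 ± 0.21. Each call of the 11 genes named from these 3 lists was lost when knockdown 4, WT 2 or WT 3 was left out, and over all their lost calls the adjusted p ran from 0.0502 (Atf6b) to 0.165 (Bloc1s1).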

How the data were processed

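RNA of sorted enteric neural crest cells was sequenced in 8 libraries, 5 labelled Emb knockdown and 3 WT. Reads were processed with HISAT and Bowtie2 on GRCm38.p6, per the submitters' processing notes. The counting tool is not given in the sources used here. The authors deposited expected counts per gene without scaling, per the file headers, of which 17.6% to 19.8% a library were fractional. The FPKM and TPM values were scaled to length and depth by the authors, per the file headers. The normalised counts, a signal, were made by the authors with a single factor for each library, and served only to check units. The 8 columns of group means were not used.

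Expected counts were rounded, filtered with filterByExpr, scaled with TMM and compared by edgeR 4.0.16 in R 4.3.3 (quasi-likelihood test, robust, two-sided), where a Benjamini-Hochberg adjusted p under 0.05 across every tested gene counted as a pass. Log2 fold changes carry standard errors. CPM values are on the TMM-scaled sizes of the 8 libraries, while the comparison of 6 libraries used its own factors. TPM served for levels between genes. A gene is said to rise or fall only where it passed. At 3 counts the CPM of a library is 0.0966 to 0.155, and such floors cover counting error only. No 2 libraries of a group agreed within sampling noise (smallest chi-square per degree of freedom 29.5). Same-numbered libraries of the groups did not deviate together (correlations -0.03, 0.04 and -0.04), so the numbers were not used as pairs.

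The members and lists, and the comparison without knockdown 1 and 2, were chosen with earlier results of these data known. Per-library values were given for members that passed without overlap, for Ern1, Eif2ak3, Atf6, Xbp1, Atf4, Ddit3 and Hspa5, and for up to 4 genes of each wider list by smallest p. A gene that this rule names is not reported here. A few further values, of Asns among them, were added after they were seen. Alternatives were DESeq2 1.42.0 and its size factors, limma 3.58.1 voom with quality weights, limma on log2(FPKM + 1) or log2(FPKM + 0.1), other filters, no composition factor, a replicate block and each library left out. The edgeR test was first tested on simulated counts. These drew all libraries from a shared mean profile, so they do not cover the split among the libraries labelled knockdown. Of 18561 gene identifiers 18507 matched RefSeq (GRCm38.p6), the members all 31. Overlapping genes came from GENCODE. Figures were made with Python 3.11.15 and matplotlib 3.10.9.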

Additional observations from a re-analysis of the deposited data

Results flagged for a closer look

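The summed CPM of the 10 gut epithelium markers was 1447 in knockdown 3, against 13.1 to 388 in the other 4 libraries labelled knockdown and 400 to 1044 in WT. Knockdown 3 stood apart from the nearest library of its group by 0.739 of the group's range, above the critical value of 0.71 for 5 samples. This was 1 of 57 groups of values examined, where chance gives about 1 in 20.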

How the results depend on the processing

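With 8 libraries the count of all genes called was 0 in edgeR, 2222 with DESeq2 and 3720 with voom, and 0 to 2 with 1 library left out. Among the 31 members it was 0, 6 with DESeq2 and 9 with voom. With 6 libraries voom called 6875 genes and 19 members, against 3090 and 6 in edgeR, and leaving out 1 library gave 180 to 5982 genes and 0 to 16 members. Of these calls 54.1% were higher with TMM, 38.4% on log2(FPKM + 1) and 45.4% without a composition factor. With the replicate number as a block in the 8 libraries 0 genes and 0 members passed. No WT library carries number 4 or 5, so this block in effect compares knockdown 1 to 3 with WT 1 to 3. Knockdown 1 and 2, which stood apart in cell markers, are among these. No paired analysis was possible because the 6 libraries share a single number between groups. No reversed value passed, and the cause was not tested. In the 8 libraries Ern1 turned to 0.39 with the replicate block and to 0.09, 0.16, 0.18 and 0.35 without knockdown 3, 4, 5 and WT 1 (with 1 library left out from -0.35). Hspa5 turned to -0.25 on FPKM with either pseudocount, -0.19 without a composition factor, -0.43 with voom and -0.0479 and -0.0421 without knockdown 1 and 2 (with 1 library left out -0.0479 to 0.2898). Xbp1 turned to -0.0734 with voom and, in the 6 libraries, to 0.0038 without knockdown 5 (with 1 library left out from -0.2887). With the replicate block Psat1 turned to 0.0122, Fkbp11 to -0.39, Atf6b to 0.0263, Creb3l2 to -0.90, Slc7a5 to 0.10 and Cars to 0.0695. On log2(FPKM + 1) and log2(FPKM + 0.1) Fkbp11 turned to -0.0518 and -0.0937 and Creb3l2 to -0.35 and -0.48. Without knockdown 4 and 5 Slc7a5 turned to 0.0316 and 0.02 (with 1 library left out from -0.7677). Over all named genes 700 alternatives kept direction and call, 76 lost the call, 36 gained one and 25 reversed. Depth limits Ern1, Trib3 and Chac1, whose levels were at most 2.69, 3.00 and 2.74 CPM.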

Other observations

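Some stress genes outside the 31 were high in knockdown 1 and 2 and did not pass in either comparison. They were chosen after their values were seen. Nupr1, a stress-induced chromatin protein gene, was at 86.5 and 64.8 CPM in knockdown 1 and 2 and 2.95 to 9.03 CPM in knockdown 3 to 5, against 2.06 to 2.60 CPM in WT (adjusted p = 0.191 with 8 and 0.079 with 6 libraries in edgeR's test). Atf3, a stress-induced transcription factor gene that is also an immediate early gene, was at 1100 and 843 CPM in knockdown 1 and 2 and 259 to 445 CPM in knockdown 3 to 5, against 167 to 241 CPM in WT. Eif2ak2, which encodes the RNA-activated eIF2 kinase PKR, was at 88.7 and 69.2 CPM in knockdown 1 and 2 and 22.5 to 24.6 CPM in knockdown 3 to 5, against 15.0 to 16.4 CPM in WT. For these 3 genes all 5 libraries labelled knockdown lay above WT. Eif2s1, the gene of the phosphorylated eIF2 subunit, was at 214 and 254 CPM in knockdown 1 and 2 and 52.2 to 142 CPM in knockdown 3 to 5, against 153 to 164 CPM in WT. Kdelr3, which returns chaperones to the ER, went the other way, with 1.29 and 5.61 CPM in knockdown 1 and 2 and 36.2 to 51.9 CPM in knockdown 3 to 5, against 23.2 to 35.8 CPM in WT.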
